A study of Homo sapiens with 2 samples.

Results

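Transfer RNA (tRNA) gene regions are stretches of open chromatin lying on or beside the genes for tRNAs. They were found by merging overlapping peaks of the sh-ctrl and sh-VNGD libraries and keeping every merged region within 1 kb of a gene that RefSeq annotates as a tRNA on chromosomes 1 to 22 of GRCh38. This gave 373 regions of 338855 merged regions, around 439 annotated tRNA genes, and 275 of them overlapped a tRNA gene itself. The chromatin was that of U2OS cells, an established human osteosarcoma line grown in DMEM with serum. The assay was ATAC-seq, where the transposase Tn5 inserts sequencing adapters into accessible DNA. The cells of one library carried the hairpin labelled sh-ctrl and those of the other the hairpin labelled sh-VNGD, after infection, in a series on the long non-coding RNA Vanguard. Each group had 1 library, so no difference below has a replicate check, and every interval covers counting error only. ATAC-seq does not measure RNA, so the knockdown was not checked here.

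RNA polymerase III transcribes tRNA genes from promoter elements inside the gene, the A box and the B box. The factor TFIIIC binds these boxes and places TFIIIB upstream of the start, and the polymerase stops at a run of T in the coding strand. Human tRNA genes occur in many copies, and genes with the same anticodon fall into isodecoders that differ in the body of the tRNA. In the names used here, TRP-TGG3-2 is a gene for a proline tRNA with the anticodon TGG, isodecoder 3, copy 2. A gene is called open where a merged region lay within 1 kb of it, and closed where none did.

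The sequences below show gene pairs that were alike in letters and unlike in accessibility, and open and closed members of other families. They come from RefSeq (GRCh38.p14), read 5′ to 3′ on the strand that carries the B box, and capitals mark the letters GTTCNANNC of that box. Only the 14 tRNA genes lying wholly inside a tabulated promoter window of another gene could be read, so these are not a sample of all tRNA genes.
TRP-TGG3-2, open, chr14:20684016-20684087, plus strand: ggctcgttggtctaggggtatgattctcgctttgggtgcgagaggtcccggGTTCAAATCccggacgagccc
TRP-TGG3-5, closed, chr16:3188094-3188165, plus strand: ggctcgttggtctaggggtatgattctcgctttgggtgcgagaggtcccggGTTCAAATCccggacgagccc
TRH-GTG1-9, open, chr15:45201151-45201222, plus strand: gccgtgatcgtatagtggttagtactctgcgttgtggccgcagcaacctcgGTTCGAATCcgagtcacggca
TRH-GTG1-3, closed, chr1:148281365-148281436, plus strand: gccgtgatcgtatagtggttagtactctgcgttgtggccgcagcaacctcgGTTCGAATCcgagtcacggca
TRA-AGC2-2, closed, chr6:28863685-28863756, minus strand: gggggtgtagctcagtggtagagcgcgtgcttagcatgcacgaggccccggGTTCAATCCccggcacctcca
TRL-AAG2-2, open in sh-VNGD only, chr6:28943622-28943703, minus strand: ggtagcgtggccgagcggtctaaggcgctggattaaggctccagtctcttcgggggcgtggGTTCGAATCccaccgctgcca
TRI-TAT2-2, open, chr6:27020346-27020439, plus strand: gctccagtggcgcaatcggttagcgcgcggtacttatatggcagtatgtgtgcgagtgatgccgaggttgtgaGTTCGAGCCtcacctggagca
TRI-AAT8-1, open, chr6:27668583-27668656, plus strand: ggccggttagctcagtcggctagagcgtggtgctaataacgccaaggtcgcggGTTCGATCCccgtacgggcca
TRN-GTT4-1, open, chr1:16889677-16889750, plus strand: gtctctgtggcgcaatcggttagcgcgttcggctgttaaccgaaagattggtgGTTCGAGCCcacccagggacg
TRN-GTT6-1, open, chr1:143735920-143735993, minus strand: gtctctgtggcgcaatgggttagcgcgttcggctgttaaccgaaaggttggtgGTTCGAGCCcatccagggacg

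Open and closed copies could carry the same letters. TRP-TGG3-2 and TRP-TGG3-5 matched at 72 of 72 bases. The region over TRP-TGG3-2 had a pileup, the count of extended tags over the highest point of the peak, of 84 sh-ctrl tags and 69 sh-VNGD tags. TRP-TGG3-5 had no region within 1 kb, and its nearest region was 1413 bp away. The histidine genes TRH-GTG1-9 and TRH-GTG1-3 also matched at 72 of 72 bases. TRH-GTG1-9 lay in a region of 46 tags in each library, and the region nearest to the closed TRH-GTG1-3 was 1012 bp away. In both of these pairs the open and the closed copy had the same letters and lay at different places. How reads matching several places were handled is not known here, and the cause of the unlike state was not tested. The asparagine genes TRN-GTT4-1 and TRN-GTT6-1 were 95.9% identical, and both lay in low peaks. The first had 11 sh-ctrl tags and 12 sh-VNGD tags, and the second was overlapped by a sh-VNGD peak of 14 tags. A region of both libraries, with 18 sh-ctrl tags and 22 sh-VNGD tags, lay 312 bp from TRN-GTT6-1.

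All 14 readable genes held exactly 1 match to the B box letters, on 1 strand, whether open or closed. In 11 of them a TTTT run began within 30 bases downstream of the gene. The same B box letters, searched on both strands, occurred in 7.4% of 33725 RefSeq promoter windows of 300 bases. A match describes letters, and binding of TFIIIC was not measured.

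Library depth bears on every count that follows. Per the file headers, 22931980 tags were kept for sh-ctrl and 31326715 for sh-VNGD, a ratio of 1.37, although fewer had been read for sh-VNGD (48164322 against 51628228). On chromosomes 1 to 22 the sh-ctrl list held 202226 peaks and the sh-VNGD list 285039. The handling of reads matching several places is not known here, and many tRNA genes lie in repeated DNA.

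Most tRNA genes were open. Of 439 genes, 360 (82.0%) had a region within 1 kb, 314 of them through both libraries, 12 through sh-ctrl alone and 34 through sh-VNGD alone, and 79 were closed. The sh-ctrl library had 326 open genes and the sh-VNGD library 348. When the genes were moved by 50 kb, 35.8% had a region as near, and 50.4% of 19126 protein-coding genes had one at their lower-coordinate end. At either end, 78.4% of protein-coding genes had a region, and 70.6% had one in both libraries, close to the 71.5% of tRNA genes. A region overlapped the gene itself for 309 tRNA genes. The closest misses of the 1 kb limit were TRL-AAG3-1, with a region at 1002 bp, and TRH-GTG1-3 at 1012 bp. Just inside it were the region 992 bp from the cysteine gene TRC-GCA22-1, with 15 sh-ctrl tags and 30 sh-VNGD tags, and the one 994 bp from TRF-GAA3-1, with 12 tags in sh-VNGD. For closed genes the median distance to the nearest region was 3017 bp, and 60 of the 79 had one within 5 kb.

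Summits lay beside the gene more often than on it, but a tRNA gene fills only a small part of its region. TRP-TGG3-2, for example, has 72 bases, and shared regions overlapping a tRNA gene had a median length of 654 bp. A region over several genes also gives them all the same summit. The share that length alone would give was not computed, so no preference for either place can be read from these values. Among genes overlapped by a region, the summit was a median of 155.5 bp from the gene's midpoint in sh-ctrl (281 genes) and 140.5 bp in sh-VNGD (298 genes). It fell inside the gene for 12.8% and 13.8%. The summit was within 200 bp for 63.7% and 70.5%. The gene table holds no strand, so upstream and downstream sides cannot be told apart.

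Most regions at tRNA genes held peaks of both libraries, and with 1 library each the difference from other regions was not tested. Of the 373 regions, 298 (79.9%) held a peak of both libraries, against 42.5% of all merged regions. A further 26 (6.97%) held a sh-ctrl peak only, against 16.6%, and 49 (13.1%) a sh-VNGD peak only, against 40.9%. Peaks of sh-VNGD alone outnumbered those of sh-ctrl alone at tRNA genes and in the whole genome, and that library had more kept tags. Shared tRNA regions were also tall, with a median over regions of the mean pileup of 51 tags against 20 for all shared regions, and 51.7% reached 50 tags against 19.2%. Their median length was 600.5 bp against 349 bp. Shared regions at protein-coding gene ends were taller and longer still, with a median of 71.5 tags, 67.9% reaching 50 tags and a median length of 728 bp. Where a single library had a peak it was mostly low, with medians of 16.5 tags for sh-ctrl and 17 tags for sh-VNGD.

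tRNA regions stood on a higher local background than all shared regions, close to that of gene ends. MACS, the peak caller, estimates this background from tags within a window of 10 kb and gives a fold enrichment, here equal to the pileup plus 1 over the background plus 1. The median local background was 6.47 tags for sh-ctrl and 6.15 tags for sh-VNGD at shared tRNA regions, against 1.8 and 2.56 at all shared regions. It was 5.48 and 6.1 at protein-coding gene ends, and 4.38 and 5.14 at all shared regions of at least 30 tags. The authors' fold enrichment had medians of 7.22 and 7.43, against 6.25 and 6.15 for all shared regions and 10.5 and 9.79 for gene ends.

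Every amino acid had open tRNA genes, but the share open ranged from 39.5% for alanine to 100% for aspartate, initiator methionine and selenocysteine. All 48 anticodons had at least 1 gene open in both libraries, and 17 had every gene open. Aspartate had 13 of 13 genes open, serine 25 of 26, proline 19 of 20 and glycine 31 of 33. The 8 genes for initiator methionine tRNA, which starts protein synthesis and is named TRX-CAT, were all open in both libraries. The lower shares were those of elongator methionine (7 of 11), histidine (6 of 9), cysteine (20 of 29) and glutamate (14 of 20).

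**Figure D1:**
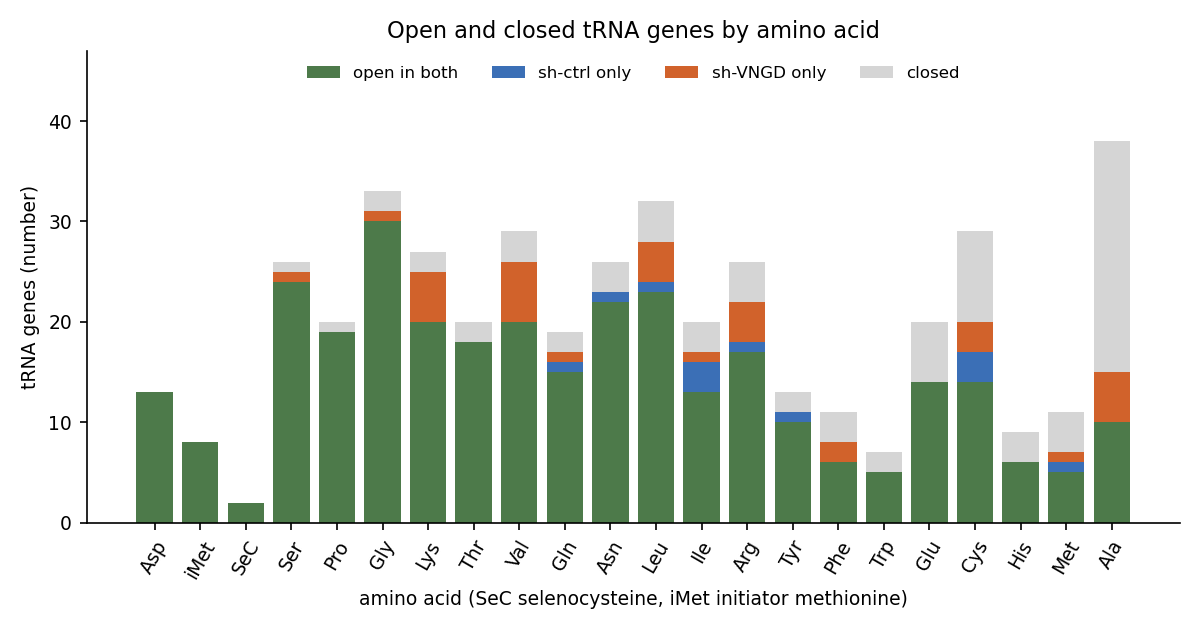
Number of tRNA genes (vertical axis) for each amino acid (horizontal axis), split into closed genes and genes open in both libraries or in either one alone. Alanine has the most genes and the most closed ones, 23 of 38, while all 13 aspartate, 8 initiator methionine and 2 selenocysteine genes were open.

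Alanine was the exception, with 15 of 38 genes open and 23 closed. The closed ones were mostly of 1 anticodon, since 19 of 25 Ala-AGC genes were closed, compared with 1 of 5 Ala-CGC and 3 of 8 Ala-TGC genes. Position went with state. Of the 31 alanine genes on chromosome 6, 22 were closed, while 6 of the 7 elsewhere were open. Of the 9 open ones on chromosome 6, 5 had a region in sh-VNGD only. The tallest alanine region, chr2:27050010-27051736, also covered a tyrosine gene, lay within 1 kb of an end of the protein-coding gene AGBL5, and had 140 sh-ctrl tags and 136 sh-VNGD tags.

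Selenocysteine tRNA, which reads a UGA stop codon as selenocysteine, has 2 annotated genes. TRU-TCA1-1, on chromosome 19, lay in a region of 65 sh-ctrl tags and 72 sh-VNGD tags. TRU-TCA2-1, on chromosome 22, lay 16 bp from a region of 12 and 13 tags. The genes for this tRNA thus differed more from each other than either did between libraries.

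Low isodecoder numbers were open more often. Of genes numbered 1, 104 of 112 were open, and of those numbered 2, 102 of 104. The share was 43 of 54 for number 3, 56 of 73 for numbers 4 to 5, 49 of 76 for numbers of 6 or more, and 6 of 20 for tRNA genes with no number. Copies of 1 isodecoder mostly shared a state. Among 55 isodecoders with at least 2 copies, all copies were open in 42 and all closed in 4, and 9 had both open and closed copies. The 4 closed ones were TRA-AGC2, TRA-AGC12, TRA-AGC14 and TRM-CAT5, with 2 copies each. Of the 34 isodecoders with 3 or more copies, 27 were open in every copy and 0 closed in every copy. The aspartate isodecoder TRD-GTC2 had 11 of 11 copies open, and TRP-AGG2, TRX-CAT1 and TRN-GTT2 had 8 of 8 each. The mixed ones included TRH-GTG1, with 6 of 9 copies open, TRR-CCG1 with 1 of 3, TRE-CTC1 with 6 of 7 and TRP-TGG3 with 4 of 5.

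The histidine isodecoder TRH-GTG1 split by place. Its closed copies, TRH-GTG1-2, TRH-GTG1-3 and TRH-GTG1-4, all lay on chromosome 1 between positions 147073225 and 148302805. Its other chromosome 1 copy, TRH-GTG1-1 at 146038044, lay in a region of 91 sh-ctrl tags and 88 sh-VNGD tags. On chromosome 15, the open copies TRH-GTG1-7, TRH-GTG1-8 and TRH-GTG1-9 had 56, 81 and 46 sh-ctrl tags and 58, 77 and 46 sh-VNGD tags. A region within 1 kb of TRH-GTG1-5, on chromosome 6, had 72 sh-ctrl tags and 57 sh-VNGD tags. TRH-GTG1-6 on chromosome 9 had 26 tags in each.

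Chromosomes 1 and 6 held 253 of the 439 tRNA genes. Chromosome 6 had 109 of 155 open (70.3%), chromosome 1 had 83 of 98 (84.7%), and the other autosomes together 168 of 186 (90.3%). These chromosomes also held 61 of the 79 closed genes, 46 on chromosome 6 and 15 on chromosome 1. Genes were joined into clusters where neighbours lay within 500 kb of each other.

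The largest cluster was on the short arm of chromosome 6, from 26286526 to 28989083, with 144 genes. Of these, 105 were open, 82 through both libraries, 6 through sh-ctrl alone and 17 through sh-VNGD alone, and 39 were closed. Splitting it at gaps over 100 kb showed that open and closed genes were unevenly spread. The run from 27478812 to 27795932 had 31 of 33 genes open, and the run from 27020346 to 27335062 had 18 of 21. In the run at 26286526 to 26331515, 11 of 13 were open.

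Closed genes gathered in the other large runs. From 26521208 to 26828299, 19 of 31 genes were open, and the 12 closed ones were 10 alanine and 2 methionine genes. All of these lay between TRA-AGC14-1 and TRA-AGC14-2, a stretch of 18 genes in which all 10 alanine genes were closed. The 6 open genes within it encode methionine and isoleucine tRNAs. TRM-CAT4-2, an elongator methionine gene inside this stretch, had 68 sh-ctrl tags and 71 sh-VNGD tags. The last run, from 28474552 to 28989083, had 23 of 43 genes open, 11 by sh-ctrl peaks and 21 by sh-VNGD peaks, and its 20 closed genes included 8 for alanine and 3 for phenylalanine. Its regions were low. TRT-TGT1-1 had 40 sh-ctrl tags and 51 sh-VNGD tags, TRT-CGT1-1 had 52 and 26, and the other 21 open genes had 9 to 29 tags. A smaller group at 57800211 to 57856473 had 1 of 6 genes open.

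**Figure D2:**
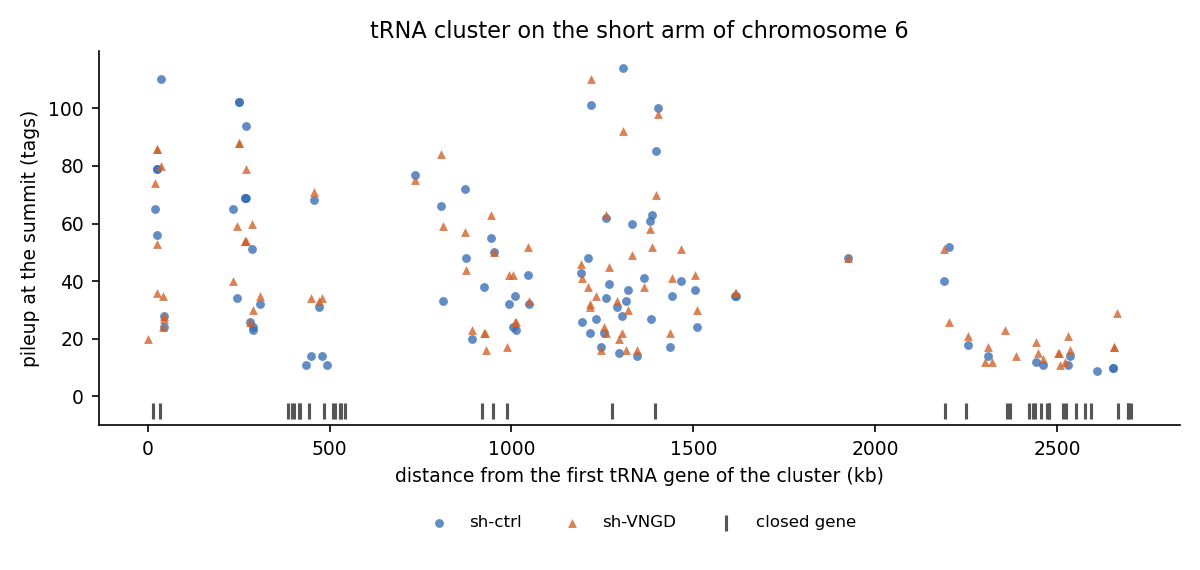
Summit pileup in tags (vertical axis) at tRNA genes along the chromosome 6 cluster, by distance in kb from its first gene (horizontal axis). Circles are sh-ctrl, triangles are sh-VNGD, and ticks below 0 mark the 39 closed genes, which gather near 500 kb and toward the right end. Each gene is drawn at the pileup of the tallest region overlapping it or, where none does, of the tallest within 1 kb.

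The chromosome 1 cluster at 161399700 to 161612029 was open throughout. All 32 genes had a region, 29 in both libraries and 3 in sh-VNGD only. Its genes stand in repeated units of glutamate, glycine, aspartate and leucine tRNA genes, and the units gave nearly equal values. The regions over TRE-CTC1-2, TRE-CTC1-3 and TRE-CTC1-4 had 60, 59 and 60 sh-ctrl tags and 61, 60 and 61 sh-VNGD tags. The regions at the glycine genes TRG-GCC1-2, TRG-GCC1-3 and TRG-GCC1-4 had 30, 29 and 30 sh-ctrl tags and 47 sh-VNGD tags each. A further region in each of these units, overlapping the aspartate genes TRD-GTC2-2, TRD-GTC2-3 and TRD-GTC2-4 and lying 637 bp from the leucine genes, had a peak of 37 tags in sh-VNGD alone. The units are therefore not independent, and whether their reads were shared among them was not tested.

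**Figure D3:**
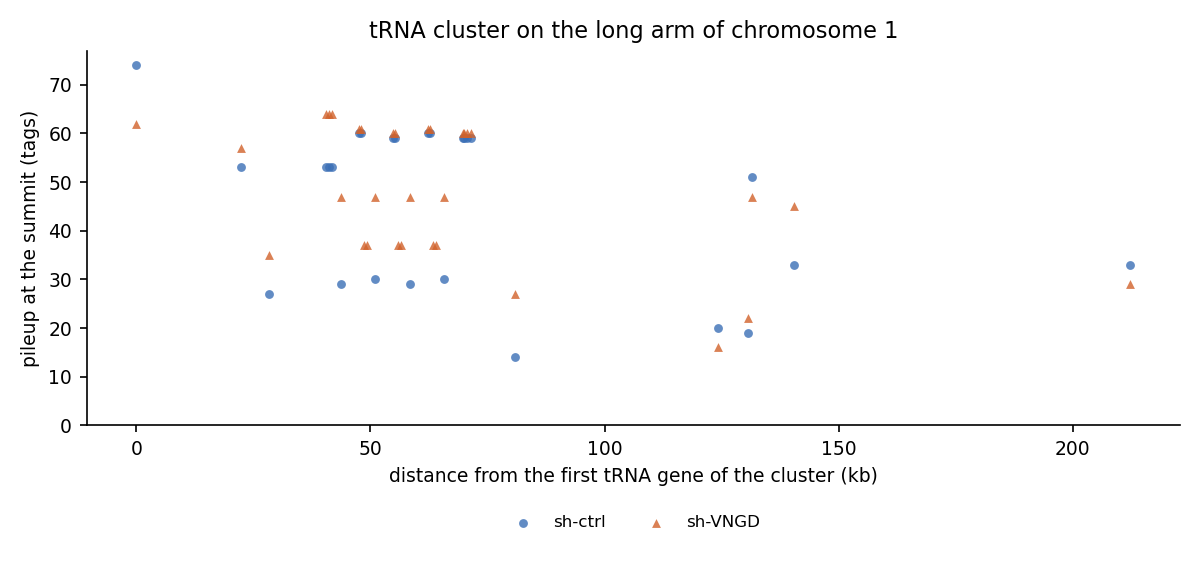
Summit pileup in tags (vertical axis) at tRNA genes along the chromosome 1 cluster, by distance in kb from its first gene (horizontal axis). Circles are sh-ctrl and triangles sh-VNGD; no gene is closed, and the repeated units give rows of nearly equal points at about 60 tags in both libraries and at 30 against 47 tags.

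The other tRNA genes of chromosome 1 varied more. In the first 1133792 bases, 4 of 13 genes were open. From 16520585 to 16889750, 8 of 8 were open, and from 148032790 to 148529330, 4 of 7. The asparagine genes of this chromosome also lie in copies. The regions of TRN-GTT7-1, TRN-GTT3-1, TRN-GTT2-8, TRN-GTT24-1 and TRN-GTT2-1 had 118 to 124 sh-ctrl tags and 132 to 137 sh-VNGD tags. Beyond these chromosomes, the clusters at chr5:181097070-181222467 and chr17:8119155-8227064 were open in 17 of 17 and 18 of 18 genes. The chromosome 7 cluster of mostly cysteine genes was open in 11 of 19.

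The libraries were then compared at the 298 shared regions. The pileup ratio was scaled to kept tags and set against the median of all shared regions in the same of 7 bands of mean pileup, because that median varied with height from −0.13 to −0.495 on the log2 scale. The resulting relative log2 ratio at tRNA regions had a median of −0.02 (quartiles −0.25 and 0.15), with 155 regions below 0 and 138 above. Before centring, the median log2 ratio was −0.42, against −0.26 for all shared regions, and it was 0.03 without scaling to tags. The tRNA regions as a group thus lay with other regions of like height. Regions overlapping a gene had a median of 0.0 (237 regions) and those only beside one −0.16 (61 regions).

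**Figure D4:**
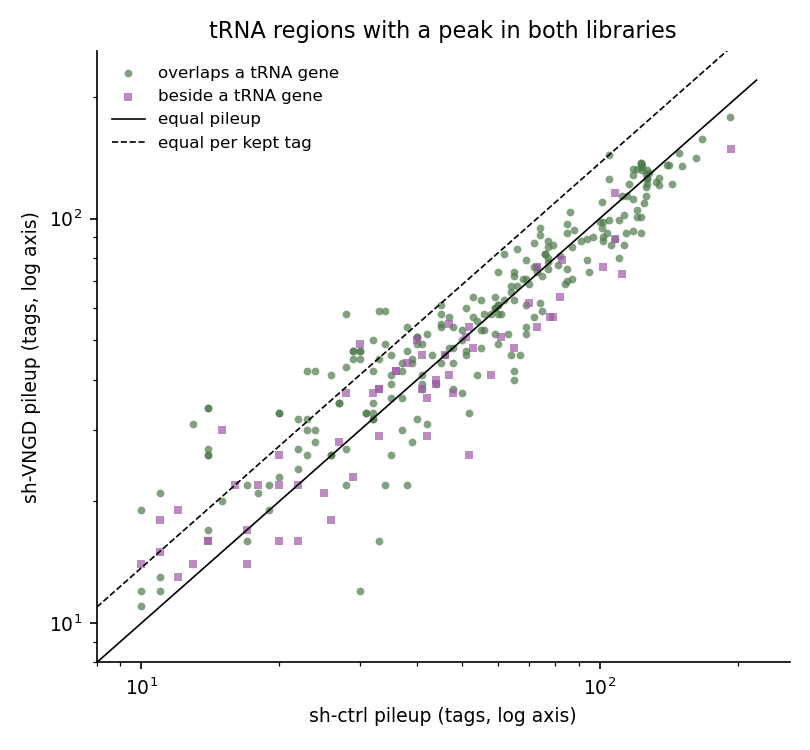
Summit pileup in sh-VNGD (vertical axis, tags, log scale) against sh-ctrl (horizontal axis, tags, log scale) for the 298 tRNA regions with a peak in both libraries, circles where the region overlaps a tRNA gene and squares where it lies beside one. Tall regions follow the solid line of equal pileup and lie below the dashed line of equal pileup per kept tag.

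Few tRNA regions differed by 1.5-fold between the libraries. A ratio at least 1.5-fold higher in sh-VNGD was found at 14 of 298 regions (4.7%), against 8.94% of all shared regions, and at least 1.5-fold lower at 18 (6.04%), against 10.9%. By the authors' fold enrichment, 11 regions were higher (against 6.49% of all shared regions) and 5 lower (against 7.49%). Past 2-fold, 0 regions were higher and 3 lower, against 4.71% of all shared regions in either direction. In regions with a mean pileup of at least 30 tags the counts were 5 and 9 of 239, against 6.87% and 10.5% of all shared regions of that height. Exact 95% intervals lay wholly above 0 for 5 of the 14 and wholly below for 10 of the 18. These regions were picked by the same ratios, and the matching share over all shared regions was not counted. The interval counts therefore do not set tRNA regions apart from others. On chromosome 6, 9 of 93 shared regions were lower (9.68%) and 6 higher (6.45%), both near the shares over all shared regions. Of the 61 regions beside a tRNA gene, 9 were lower (14.8%) and 1 higher (1.64%), and of the 237 overlapping one, 9 were lower (3.8%) and 13 higher (5.49%). At protein-coding gene ends 4.07% of shared regions were higher and 5.75% lower, close to the shares of the tRNA regions.

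The lowest ratio was at TRC-GCA8-1, a cysteine gene on chromosome 14. Its region, chr14:72962945-72963424, also lay by an end of the protein-coding gene DCAF4 and had 30 sh-ctrl tags and 12 sh-VNGD tags, a relative log2 ratio of −1.61 (exact 95% interval −2.71 to −0.60). On chromosome 6, the leucine gene TRL-CAA3-1 had 33 and 16 tags (−1.33, interval −2.29 to −0.43). Beside the threonine gene TRT-CGT1-1, the counts were 52 and 26 tags (−1.14, −1.88 to −0.44). The serine gene TRS-CGA2-1 followed, with 38 and 22 tags (−0.93), and then the glutamine gene TRQ-CTG2-1, with 34 and 22 (−0.92). A region 837 bp from the glutamine gene TRQ-CTG5-1, not overlapping it, had 26 and 18 tags (−0.82, interval −1.77 to 0.10). The interval of the last spans 0. Of these 6, 5 were in the chromosome 6 cluster, which held 90 of the 298 shared regions. By fold enrichment all 6 were lower too, at −1.08 for TRC-GCA8-1, −0.97 for TRT-CGT1-1, −0.73 for TRL-CAA3-1 and −0.69 for TRS-CGA2-1. The regions of TRQ-CTG2-1 and TRQ-CTG5-1 stood at only −0.38 and −0.30 on that scale, not past 1.5-fold. Their local background, centred in the same way, was −0.65 and −0.63.

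The highest ratios started from few tags in sh-ctrl. TRM-CAT4-1 and TRM-CAT4-3, in the chromosome 6 stretch of closed alanine genes, each had 14 sh-ctrl tags and 34 sh-VNGD tags (0.99, interval 0.06 to 2.0). Their regions had the same length, pileup and fold enrichment in both libraries, so they count as 1 observation. TRL-AAG2-4, a leucine gene at an end of POLR3E, itself a subunit gene of RNA polymerase III, had 13 and 31 tags (0.96, −0.01 to 2.02). TRN-GTT26-1, near the start of chromosome 1, had 28 and 58 tags (0.91, 0.23 to 1.61). By the authors' fold enrichment it stood at only 0.20, and its local background was 2.34 tags for sh-ctrl and 5.34 tags for sh-VNGD. TRN-GTT27-1 had 23 and 42 tags (0.73), and the region beside TRC-GCA22-1 stood at 0.71. Both intervals span 0.

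The tallest regions differed little. TRR-ACG1-3, an arginine gene by an end of PRMT5 on chromosome 14, had 193 sh-ctrl tags and 178 sh-VNGD tags (−0.07, interval −0.37 to 0.23). The region near the glutamine gene TRQ-CTG4-1 on chromosome 1 had 194 and 149 tags (−0.34, −0.65 to −0.02). The cysteine gene TRC-GCA17-1 had 167 and 157, the threonine gene TRT-AGT1-3 162 and 141, the glutamine gene TRQ-TTG1-1 151 and 135, and the tyrosine gene TRY-GTA4-1 149 and 145. Of these 6, the interval excluded 0 only at TRQ-CTG4-1. By the authors' fold enrichment that region stood at 0.03, and its local background was 17.5 tags for sh-ctrl and 14.4 tags for sh-VNGD. Among the tallest regions that overlap a gene of each amino acid, which leaves out the one beside TRQ-CTG4-1, the isoleucine gene TRI-TAT2-1 had an interval wholly above 0, with 105 sh-ctrl tags and 144 sh-VNGD tags (0.50, 0.12 to 0.87).

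Regions found in 1 library only could reach moderate heights. In sh-ctrl only, the tallest was beside the cysteine genes TRC-GCA2-2 and TRC-GCA4-1, with 52 tags over a local background of 14.8. Next, with 38 tags each, came a region at TRW-CCA1-1 and TRG-TCC3-1 and one 995 bp from TRI-AAT5-3. The gene TRI-AAT5-3 itself was overlapped in both libraries, with summits 79.5 bp (sh-ctrl) and 138.5 bp (sh-VNGD) from its midpoint. In sh-VNGD only, TRC-GCA21-1 had 46 tags, the region beside TRR-TCT2-1 had 39, and the 3 repeated units of the chromosome 1 cluster had 37. Calling also weighs the local background, so a region without a peak can still hold tags.

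By amino acid, the medians of the relative log2 ratio were mostly near 0. Elongator methionine had the highest median, 0.29 over 5 regions (0.32 by fold enrichment), among them the repeated copies TRM-CAT4-1 and TRM-CAT4-3. Asparagine regions were highest among amino acids with at least 10 regions, with a median of 0.19 over 24 regions, 20 of them above 0. With the repeated chromosome 1 copies counted once, 15 of 19 were above 0. By fold enrichment the asparagine median was 0.014, and the local background had one of 0.25. All 6 tryptophan regions were below 0 (median −0.17), as were 9 of 11 initiator methionine regions (median −0.10). Threonine regions had a median of −0.18, with 16 of 23 below 0, and Leu-AAG regions one of 0.49 over 6 regions. By fold enrichment the sign turned for tryptophan (0.12), initiator methionine (0.14) and threonine (0.03), with local background at −0.45, −0.37 and −0.22, while Leu-AAG stood at 0.35. The Leu-AAG regions include repeated copies at TRL-AAG1-1 and TRL-AAG1-2, each with 14 sh-ctrl tags and 26 sh-VNGD tags (0.60), so they are not independent. They also include the region of TRL-AAG2-4 at an end of POLR3E (0.96), whose interval spans 0.

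The clusters on chromosomes 1 and 6 had similar pileup ratios and unlike local backgrounds. The 90 shared regions of the chromosome 6 cluster had a median relative log2 ratio of −0.06, with 6 regions past 1.5-fold higher (6.67%) and 9 lower (10.0%), near the 8.94% and 10.9% of all shared regions. The 18 of the chromosome 1 cluster had one of 0.06, with 13 above 0. The local background, centred in the same way, was lower in sh-VNGD at the chromosome 6 cluster, with a median of −0.29 and 70 of 90 regions below 0. At the chromosome 1 cluster it was higher, at 0.28, with 4 of 18 below 0. The fold enrichment stood in the opposite order, at 0.17 and −0.10. Over all shared tRNA regions, the local background had a median of −0.19 (213 of 298 below 0) and the fold enrichment one of 0.12 (197 of 298 above 0).

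**Figure D5:**
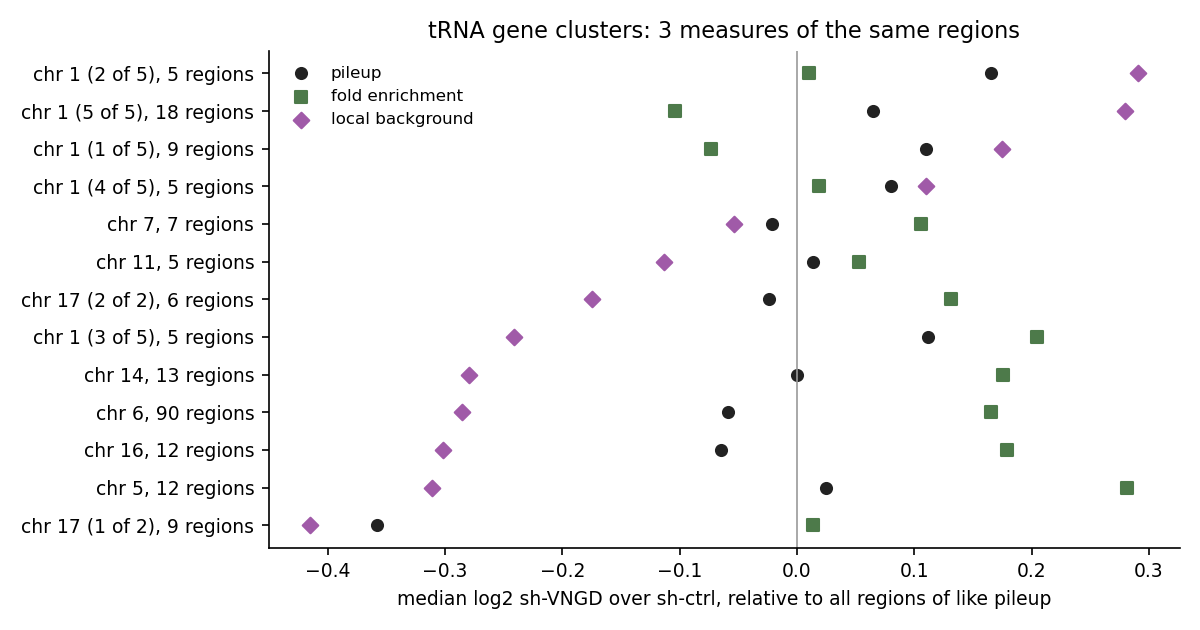
Median log2 ratio of sh-VNGD over sh-ctrl, relative to all shared regions of like pileup (horizontal axis), in each tRNA cluster with at least 5 shared regions (vertical axis), for pileup (circles), authors' fold enrichment (squares) and local background (diamonds). Medians of pileup lie near 0 except in the first chromosome 17 cluster at −0.36, while local background ranges from −0.42 there to 0.29 on chromosome 1.

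The chromosome 17 cluster at 8119155 to 8227064 had the lowest pileup ratio of any cluster with at least 5 shared regions. Its median was −0.36 over 9 regions, and 8 of them were below 0. The tallest, a region across TRW-CCA3-3, TRS-GCT4-3, TRT-AGT1-1 and TRI-AAT5-5, had 121 sh-ctrl tags and 105 sh-VNGD tags. The region of TRS-AGA2-6 and TRI-AAT4-1 had 67 and 46 tags (−0.54), and that of TRD-GTC2-11 and TRP-CGG1-3 had 85 and 92 (0.11). None was past 1.5-fold, and the local background was lower in sh-VNGD at all 9 (median −0.42). By fold enrichment the median of the cluster was 0.014, so the lower ratio was not seen on that scale.

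The machinery of tRNA synthesis was compared at the ends of its protein-coding genes. The 30 genes of RNA polymerase III and its factors were open in both libraries, as were 70.6% of protein-coding genes, with a median relative log2 ratio of −0.11 against −0.03 for 13426 protein-coding genes. Of them, 3 were past 1.5-fold higher, against 3.78% of protein-coding genes, and 2 lower, against 5.53%. The higher ones were SNAPC2, with 47 sh-ctrl tags and 93 sh-VNGD tags (0.98, interval 0.46 to 1.52), POLR3E in the region shared with TRL-AAG2-4, and the TFIIIB subunit gene BRF1, with 29 and 50 (0.64, −0.04 to 1.36). The lower ones were BDP1, another TFIIIB subunit gene, with 22 and 14 tags (−0.97, −2.05 to 0.06), and CRCP, a polymerase subunit gene, with 58 and 39 (−0.71, interval −1.34 to −0.10). Subunit and factor genes thus lay on both sides of 0, with 21 of the 30 below it, against 7260 of 13426 protein-coding genes. That difference was not tested.

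The 39 matched genes for tRNA processing and modification were also open in both libraries, beside the same 70.6%, with a median of −0.04. Among the 39, 1 was past 1.5-fold higher, against 3.78% of protein-coding genes, and 0 lower, against 5.53%. The higher one was the splicing endonuclease gene TSEN34, with 11 sh-ctrl tags and 30 sh-VNGD tags (1.16, interval 0.12 to 2.30). The next highest was RPP25, an RNase P subunit gene, at 0.40, and the lowest were RPP38 at −0.57, also of RNase P, and RTCB, the tRNA ligase gene, at −0.50. Of 20 other genes that RNA polymerase III transcribes, 19 were open in both libraries. The vault RNA gene VTRNA2-1 was closed. RNU6-1, a gene for the spliceosomal U6 RNA, had 37 sh-ctrl tags and 130 sh-VNGD tags (1.81, 1.28 to 2.38). RPPH1, the RNA of RNase P, had 225 and 190 (−0.20). The other 17 with a ratio, RPPH1 included, lay between −0.23 for RN7SL1 and 0.33 for RNY4, and their intervals all span 0.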

How the data were processed

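The member regions, gene lists and alternatives were chosen with earlier results of these data known. Peaks were called by the authors with MACS 2.1.0.20150731 on each library without a control, with a q cutoff of 0.05 and 1 tag kept per position, per the file headers. MACS2 2.1.2, Bowtie2 2.2.5 and deepTools are named in the submitters' processing notes. The handling of reads that match several places was not given in those sources. The deposited pileup is a signal in tags, unscaled for depth, and the fold enrichment, a ratio over local background, and the −log10 p and −log10 q values are the authors' own. Shorter deposited lists of the same peaks added nothing. Per the file headers, each tag was moved 100 bp and lengthened to 200 bp.

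Peaks overlapping by at least 1 bp were merged with pandas 2.3.3, and the highest pileup of each library was taken. Gene places are those of RefSeq for GRCh38.p14, given without strand. Local background was recovered from pileup and fold enrichment. Exact Clopper-Pearson 95% intervals came from scipy 1.17.1 and were tried on simulated pileups. These were drawn as independent counts, without peak calling or the choice of a highest point, so the trial does not check the intervals on real pileups. Alternatives were other scalings, centrings, windows, thresholds and cluster gaps. No p-values were computed.

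Named regions were the 6 highest and 6 lowest ratios at a mean pileup of at least 20 tags, the 6 tallest, the 3 tallest in 1 library only for each library with ties, and the tallest of each amino acid. Isodecoders of 3 or more copies with every copy in 1 state, the extreme amino acids, and, per pathway list, its 2 highest and its 2 lowest genes were also named. Others were chosen after their values were seen.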

Additional observations from a re-analysis of the deposited data

How the results depend on the processing

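Counts of open genes stayed within 1.5 times of the reported ones under a 500 bp window, overlap with the gene, a −log10 q of at least 5 and unmerged peaks, except that 130 genes rather than 79 were closed when overlap was required. The centred median of −0.02 was 0.12 by fold enrichment and −0.15 when centred on all shared regions. The uncentred median of −0.42 was 0.13 when scaled to total tags, 0.032 unscaled and −0.003 by fold enrichment. Past a fold of 2, 0 regions were higher and 3 lower. By fold enrichment 5 were lower at 1.5-fold, as were 9 in regions overlapping a gene. The chromosome 1 median of 0.06 was −0.10 by fold enrichment and 0.28 by local background, and that of chromosome 6, −0.06, was 0.17 and −0.29. The cause of these differences was not tested. With repeated copies counted once, a choice made after seeing the data, 285 regions remained, 12 higher and 18 lower. Of 105 alternative values for 35 named regions, 100 lay within the counting interval and 0 called ones reversed. Much of this was fixed in advance. Summed pileups repeat the highest pileup where a library had 1 peak in the region. Centring on all shared regions only shifts each ratio by the constant of its band. Of the alternatives tried on named regions, only fold enrichment brings in another value, so the count is no check of robustness. Regions of few tags limit what can be seen. No paired analysis was possible because each group had 1 library.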
